A study of Homo sapiens with 4 samples.

Results

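BDH1, OXCT1 and ACAT1 encode 3 mitochondrial enzymes of ketone body metabolism, and every H3K27ac region that the authors' deposited table assigned to them was examined. The gene name was the only criterion. It selected 32 of 91107 distinct regions: 19 for BDH1, 10 for OXCT1 and 3 for ACAT1. H3K27ac, acetylated lysine 27 of histone H3, is a mark of active promoters and enhancers and was mapped by ChIP-seq, in which chromatin bound by an antibody to the mark is sequenced. The cells were A375, an established line from a human melanoma. Per the labels, 2 libraries came from cells kept for 48 hours in 1 mM octanoate, a fatty acid of medium chain length, and 2 from cells kept as long in its solvent, isopropanol. Cells of both groups carry no other treatment in the labels. The labels do not say whether the 2 libraries of a group came from separate cultures, so the authors' p-values may measure technical spread only.

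Ketone bodies are made in liver mitochondria from the acetyl-CoA of fatty acid oxidation and burned in other tissues, and medium-chain fatty acids are a strongly ketogenic fuel. BDH1, 3-hydroxybutyrate dehydrogenase, interconverts 3-hydroxybutyrate and acetoacetate. OXCT1 moves coenzyme A from succinyl-CoA to acetoacetate, the step that commits ketone bodies to oxidation and that liver lacks. ACAT1, the mitochondrial acetoacetyl-CoA thiolase, splits acetoacetyl-CoA into acetyl-CoA and also runs in reverse at the start of synthesis.

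The deposited values are those of 1 comparison between the groups, with a mean level, a log2 fold change and its standard error (SE) per region and no value per library. The header does not name the numerator, so a fold change is called positive or negative and not a gain or loss under octanoate. Depth per library is unknown, and no spread between replicates could be computed. A level averages over all cells, so more cells with the mark and more mark per cell cannot be told apart. Of 7 melanoma or melanocyte lineage genes examined, 7 had a region in the deposited table and 5 had one over the start, SOX10, MITF and PMEL among them, whereas MLANA and TYR had none there. Of genes of other cell types, the liver gene ALB had no line in the table used here, and the liver gene APOA1 had 1 region, over its start, with a mean level of 9.80 in the deposited table. The blood cell genes PTPRC and CD3E and the epithelial gene CDH1 had regions but none over the start, with highest mean levels of 408, 44.2 and 59.6 in the deposited table. The epithelial gene EPCAM had 19 regions with levels of up to 144, 1 of them over the start at 50.5. Of the lineage genes, SOX10 reached 774, AXL 516, MITF 370 and PMEL 269 in the deposited table. S100B, MLANA and TYR reached only 55.2, 48.5 and 32.0, below EPCAM, CDH1 and PTPRC.

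The start of each gene is shown first, because H3K27ac was read relative to it. RefSeq gave 2 start windows for each of the 3 genes (GRCh38.p14, the build called hg38 in the submitters' processing notes). For BDH1 and OXCT1, 1 of the 2 starts lay inside a deposited region. The other lay outside every region of the table used here (called unmarked here). For ACAT1 both windowed starts lay inside. The RefSeq extent of ACAT1, however, begins at position 108116705 of chromosome 11, an end without a window. It lies before the first ACAT1 region, which begins at 108117354, so this gene is not shown to differ from the other 2. The 250 bases before 4 of these starts are printed 5′ to 3′ to show how the marked and the unmarked starts differ in sequence, and capitals mark the motifs found.
BDH1, marked start, chr3:197555969-197556218, minus strand: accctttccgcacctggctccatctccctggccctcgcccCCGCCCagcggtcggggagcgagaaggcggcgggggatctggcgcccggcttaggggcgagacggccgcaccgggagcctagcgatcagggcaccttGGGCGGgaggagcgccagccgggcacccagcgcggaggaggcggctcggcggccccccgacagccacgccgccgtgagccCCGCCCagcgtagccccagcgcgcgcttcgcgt
BDH1, unmarked start, chr3:197573344-197573593, minus strand: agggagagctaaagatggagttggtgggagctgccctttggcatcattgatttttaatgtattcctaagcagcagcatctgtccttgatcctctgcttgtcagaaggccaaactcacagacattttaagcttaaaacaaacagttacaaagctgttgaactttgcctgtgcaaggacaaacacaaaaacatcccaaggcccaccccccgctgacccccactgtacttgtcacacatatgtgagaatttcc
OXCT1, marked start, chr5:41870426-41870675, minus strand: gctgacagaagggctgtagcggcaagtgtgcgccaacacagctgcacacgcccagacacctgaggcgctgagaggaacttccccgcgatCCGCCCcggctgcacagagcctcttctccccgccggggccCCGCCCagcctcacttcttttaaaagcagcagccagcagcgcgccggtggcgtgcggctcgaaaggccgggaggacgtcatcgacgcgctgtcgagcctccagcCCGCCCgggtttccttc
ACAT1, marked start, chr11:108121317-108121566, plus strand: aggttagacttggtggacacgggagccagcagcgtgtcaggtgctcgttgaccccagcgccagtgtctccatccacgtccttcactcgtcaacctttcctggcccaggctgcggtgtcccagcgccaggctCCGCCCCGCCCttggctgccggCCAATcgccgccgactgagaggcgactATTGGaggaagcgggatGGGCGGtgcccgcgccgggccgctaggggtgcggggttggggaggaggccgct

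The marked BDH1 start lay inside the gene, and the unmarked one was the outermost start of the gene at position 197573343 of chromosome 3. The 250 bases before the marked BDH1 start had a GC content of 77.6% and 34 CpG dinucleotides, against 45.6% and 1 before the unmarked start. OXCT1 showed the same split, with 68.0% GC and 25 CpG dinucleotides before its marked start and 34.8% and 2 before its other start, at position 41843657 of chromosome 5. The 2 ACAT1 starts, both marked, had 69.2% and 73.6% GC. Over 34943 RefSeq start windows, those whose start lay inside a deposited region made up 51.4% and had a median GC content of 64.8%, and the others had 48.8%. The difference within BDH1 and OXCT1 had the same direction as the one over all windows. Of 4034 protein-coding genes with 2 or more start windows, 28.9% likewise had some but not all starts inside a region.

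**Figure D1:**
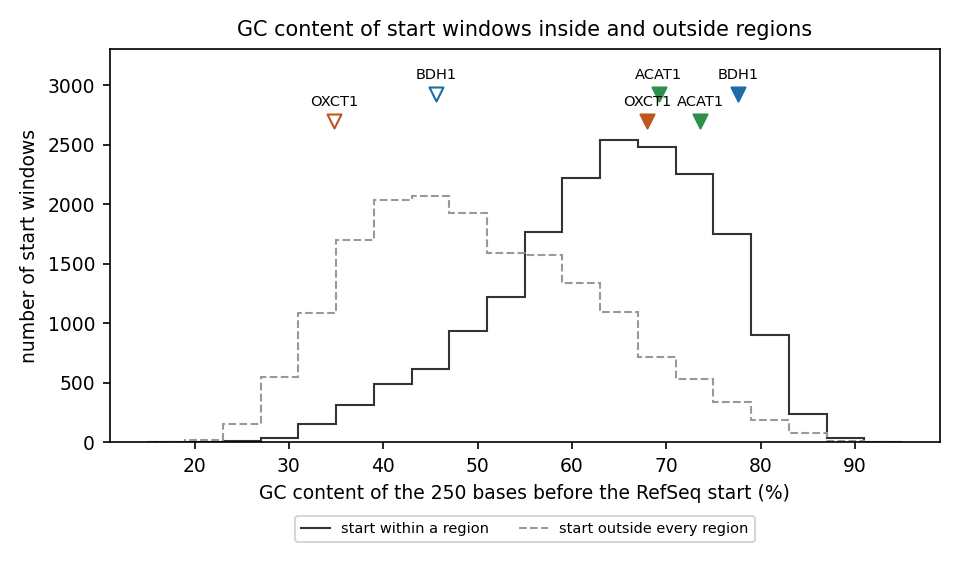
Number of RefSeq start windows (y axis) by GC content of the 250 bases before the start, in percent (x axis), for starts inside a deposited H3K27ac region (solid line) and outside every region (dashed line). Triangles mark the 6 windows of the 3 genes, filled where the start lay inside a region; the open ones, BDH1 at 45.6% and OXCT1 at 34.8%, lie to the left of the 4 filled ones.

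The GC box, GGGCGG or CCGCCC on the other strand and a binding motif of SP family factors, occurred 3 times before each of the marked BDH1 and OXCT1 starts and 3 times before the ACAT1 start printed, where 2 copies overlapped by their outer letters. No copy lay before the unmarked starts of BDH1 and OXCT1 or before the second ACAT1 start, which is also marked. In all 34943 windows of the same length, 42.5% held a GC box. The ACAT1 window also held CCAAT 97 bases before the start and its reverse, ATTGG, 70 bases before it, a motif of NF-Y found in 32.0% of windows. The other motifs searched, on both strands, were absent from the 250 bases before all 6 starts: the TATA box (TATAAA, in 10.8% of windows), the E-box (CACGTG, in 6.32%), the ETS motif (CCGGAAG, in 8.48%), the nuclear receptor half-site (TGACCT, in 12.1%), the ERR element (TCAAGGTCA, in 0.321%), whose other strand contains the half-site, and the NRF1 motif (in 1.02%).

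The level over the starts was described next. Per kb of region, the OXCT1 start carried the most, 34.2 of the authors' normalized units in the deposited table, followed by BDH1 with 22.7 and ACAT1 with 15.6. Among the 9996 regions over starts that had an adjusted p-value in the deposited table, OXCT1 stood at percentile 84.3 of level per kb, BDH1 at 33.4 and ACAT1 at 4.9. The ACAT1 start was thus among the least densely marked of these 9996, which leave out start regions without an adjusted p-value. The deposited table gives no error for a level, so it is not known whether neighbours in this order differ.

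All 3 start regions were narrower than the median start region of 3316.5 bases in the deposited table. The OXCT1 region (chr5:41869011-41870946) spanned 1935 bases with a mean level of 66.1 in the deposited table. It also overlapped the start of OXCT1-AS1, a non-coding RNA of the opposite strand that begins inside OXCT1 and runs past its start (chr5:41870030-41872241), and a further non-coding gene, LOC102723752, and a chromatin mark cannot be assigned to one of them. The BDH1 region (chr3:197554115-197556592) spanned 2477 bases at a mean level of 56.3 in the deposited table, and the ACAT1 region (chr11:108121087-108123837) spanned 2750 bases at 43.0.

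Away from the starts, the genes differed in how much marked chromatin was assigned to them. BDH1 had more regions than 94.8% of the 17301 genes in the deposited table, OXCT1 more than 84.5% and ACAT1 more than 42.6%, where the median gene had 3. Of the BDH1 regions, 13 lay beyond the end of the gene, and these held 71.4% of the summed mean level of its regions in the deposited table (444 of 622 units, over 25897 of 37805 bases). The assignment went by distance, and no region of this group is shown to act on BDH1. Of the 13, 1 overlapped the non-coding gene LOC105374309 and 2 overlapped LOC105374308. By contrast, all 9 OXCT1 regions away from the start lay inside the gene of 140.361 kb, and both ACAT1 regions away from the start lay within the RefSeq extent of ACAT1 (chr11:108116705-108147603), which begins upstream of the marked starts.

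The 2 regions of the whole set with the highest mean levels were broad and lay beyond the end of BDH1. One (chr3:197486384-197493553) was 62.4 kb from the BDH1 start and had a mean level of 130 in the deposited table over 7169 bases. The other (chr3:197463924-197469617), 86.4 kb from the start, had 129 over 5693 bases in the deposited table. Per kb, they had 18.1 and 22.7 units in the deposited table, and the BDH1 start had 22.7. The median of all regions with an adjusted p-value was 19.3. No other region of the table used here lay within 33.5 kb of the BDH1 start region on the side of the gene body or within 42.7 kb on the other side, where the unmarked start lies. On the outer side, the BDH1 region 68.4 kb upstream (mean level 58.6 in the deposited table) overlapped SDHAP4, a pseudogene of SDHA with similar copies elsewhere in the genome, so its level is uncertain.

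The 3 OXCT1 regions nearest to the one over the start, 2289 bases, 5.77 kb and 11.2 kb into the gene, were weak, with mean levels of 2.90, 13.8 and 3.56 in the deposited table. Its strongest inner regions lay 33.7 and 75.1 kb into the gene, with mean levels of 29.5 and 29.8 in the deposited table. ACAT1 was flanked by 1 weak region 3.95 kb upstream of its start and 1 weak region 2.86 kb downstream, with mean levels of 2.53 and 3.63 in the deposited table.

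**Figure D2:**
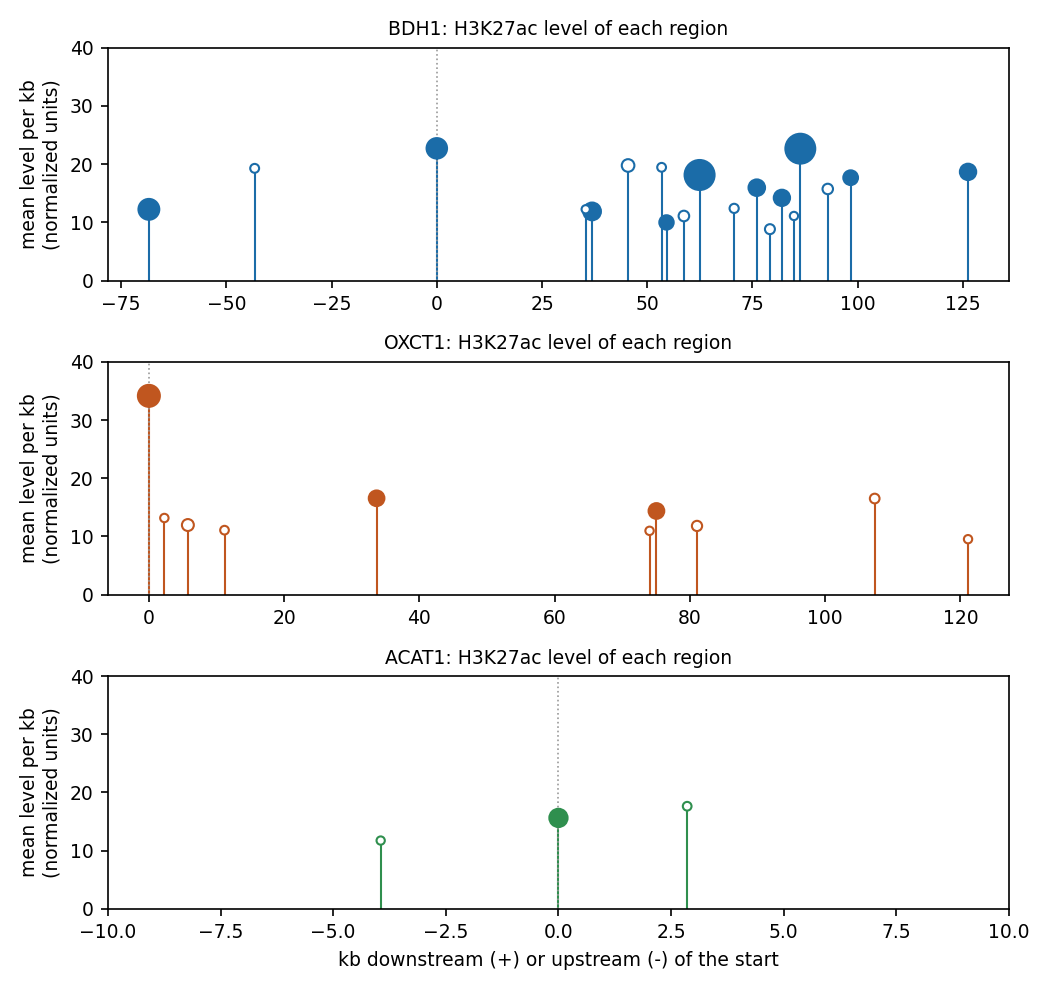
Mean H3K27ac level per kb of region in the authors' normalized units (y axis) by signed distance in kb from the gene start, positive in the direction of transcription (x axis, with its own range in each panel), for each region of BDH1, OXCT1 and ACAT1. Point area grows with the region's mean level, and filled points have an adjusted p-value; the group of BDH1 regions between 53.4 and 126 kb lies beyond the end of the gene, whereas the OXCT1 start at 34.2 units per kb stands above all other points.

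The comparison between octanoate and vehicle was taken from the authors' fold changes. None of the 32 regions was called at a deposited adjusted p-value under 0.05. Of all 36436 regions with an adjusted p-value, 1.67% were called in the deposited table, so a count of 0 here is near the background and says nothing particular to these genes. The authors' adjustment covered 14 of the 32, and the other 18, with mean levels of at most 16.5 in the deposited table, were outside it. At an unadjusted p-value under 0.05 there were 2 of 32 regions, against 8.99% of all regions in the deposited table. Both were assigned to BDH1 and positive, as were 7907 of all 8189 regions at that threshold in sign. With the median of all adjusted regions subtracted from the fold changes, 0 of the 14 were called, beside 0.124% of all such regions computed from the deposited table. With the adjustment spread over all distinct regions, 0 of the 32 were called, beside 0.274%.

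The starts of the 3 genes had similar, positive fold changes, a sign shared by 98.1% of the 9996 start regions with an adjusted p-value. The log2 fold change in the deposited table was 0.49 ± 0.30 (SE) at ACAT1, a ratio of 1.40, with a 95% interval of -0.10 to 1.08 (adjusted p-value 0.345). At BDH1 it was 0.49 ± 0.32 (SE) in the deposited table, with an interval of -0.14 to 1.12 (adjusted p-value 0.369). OXCT1 had 0.37 ± 0.27 (SE) in the deposited table, a ratio of 1.29, with an interval of -0.16 to 0.90 (adjusted p-value 0.417). Every interval included 0, so no change was detectable at any of these starts.

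The 3 starts could not be ranked by fold change either. In 3 pairs compared, the difference in log2 fold change was 0.00 for ACAT1 minus BDH1 (95% interval -0.86 to 0.86), 0.12 for BDH1 minus OXCT1 (-0.71 to 0.94) and 0.12 for ACAT1 minus OXCT1 (-0.68 to 0.91). These were computed from the deposited SEs, treating regions as independent. The precision was low: at the SEs of these starts, the smallest statistic that was called anywhere in the deposited table, 3.34, corresponds to a ratio of 2.00 at ACAT1, 2.10 at BDH1 and 1.88 at OXCT1.

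The values at the starts must be read beside the rest of the table, in which most regions were positive. The median log2 fold change of all regions with an adjusted p-value was 0.32 in the deposited table, and that of the 9996 over starts was 0.35 (95% interval over regions 0.348 to 0.357). Relative to the median of 0.32, the fold changes computed from the deposited table were 0.17 at ACAT1, 0.17 at BDH1 and 0.05 at OXCT1. Among the 9996 start regions, ACAT1 stood at percentile 75.7 of the fold changes in the deposited table, BDH1 at 75.5 and OXCT1 at 54.3.

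Among the regions assigned to BDH1, the largest positive fold change with an adjusted p-value lay inside the gene (chr3:197515709-197519098). It was 36.9 kb from the start, at a mean level of 40.3 in the deposited table. The fold change was 0.81 ± 0.35 (SE) on the log2 scale in the deposited table, a ratio of 1.75 (p-value 0.0214 before and 0.202 after adjustment). The second lay beyond the end of the gene (chr3:197499034-197501412), with 0.73 ± 0.37 (SE) in the deposited table (p-value 0.0472 before and 0.266 after adjustment). Neither passed the threshold. Per kb they had 11.9 and 9.99 units in the deposited table, below the median of 19.3 of all regions with an adjusted p-value.

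The 2 broad regions beyond BDH1 with the highest mean levels had the smallest SEs of the set and stayed close to the bulk of the table. Their log2 fold changes in the deposited table were 0.25 ± 0.23 (SE) and 0.26 ± 0.24 (SE), both slightly below the median of 0.32. Of the other BDH1 regions with an adjusted p-value, 1 was negative in the deposited table, at -0.02 ± 0.31 (SE), over LOC105374309. Apart from the start region and the 2 with the largest fold changes, the remaining ones ran from 0.10 to 0.34 in the deposited table. The 9 BDH1 regions without an adjusted p-value scattered from -0.81 to 0.83 in the deposited table, and 7 of them were negative.

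Inside OXCT1, the 2 regions with an adjusted p-value went different ways within their errors. The one 75.1 kb into the gene had a log2 fold change of 0.39 ± 0.33 (SE) in the deposited table, and the one 33.7 kb into it had -0.09 ± 0.35 (SE). The 7 weak ones ran from -1.10 to 0.83 in the deposited table, with SEs from 0.48 to 1.07. The lowest of these, 2289 bases from the start, had -1.10 ± 1.00 (SE) at a mean level of 2.90 in the deposited table, too shallow to show a difference from the start region next to it. The 2 weak ACAT1 regions had 0.78 ± 1.18 (SE) upstream and 0.66 ± 0.83 (SE) downstream in the deposited table, so the values at ACAT1 were positive at 3 of 3 regions with wide errors at 2 of them.

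**Figure D3:**
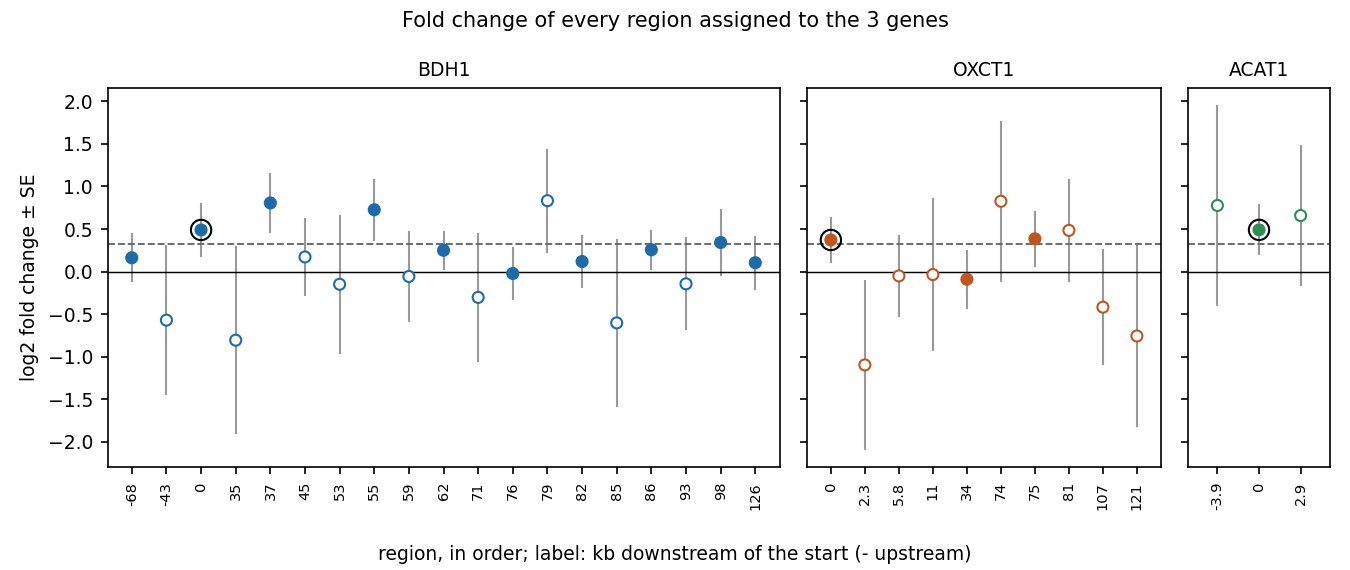
Log2 fold change of each region in the deposited table with its SE (y axis), in order along BDH1, OXCT1 and ACAT1 (x axis, labelled with kb downstream of the start). Filled points have an adjusted p-value, black circles mark the regions over the starts, the dashed line is the median of 0.32 of all regions with an adjusted p-value, and the open points, which have low levels, scatter most.

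Over the 32 regions, log2 fold changes in the deposited table had a median of 0.14 (exact 95% interval over regions -0.09 to 0.39), beside 0.28 for all regions. Positive values made up 18 of the 32, or 56.3%, beside 73.7% of all regions in the deposited table. The 14 with an adjusted p-value had a median of 0.30 and 12 positive values in the deposited table, where 87.3% of all such regions were positive. The 18 without one had a median of -0.10 and 6 positive values in the deposited table, beside 0.21 and 64.6% for all such regions. The 3 regions over starts had a median of 0.49, and the 29 elsewhere had 0.10 (-0.14 to 0.34) in the deposited table, beside 0.36 and 0.25 for all regions over starts and elsewhere. Of the 29, 18 had no adjusted p-value, and the 11 that had one gave a median of 0.25 in the deposited table. Regions of 1 gene share their libraries and are not replicates, so these medians describe the set and do not test it.

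Set against regions of like level, no member stood out. In 20 equal bins of mean level, each of the 32 lay between the 5th and the 95th percentile of its own bin in the deposited table, with 12 above the bin's median and 20 below.

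**Figure D4:**
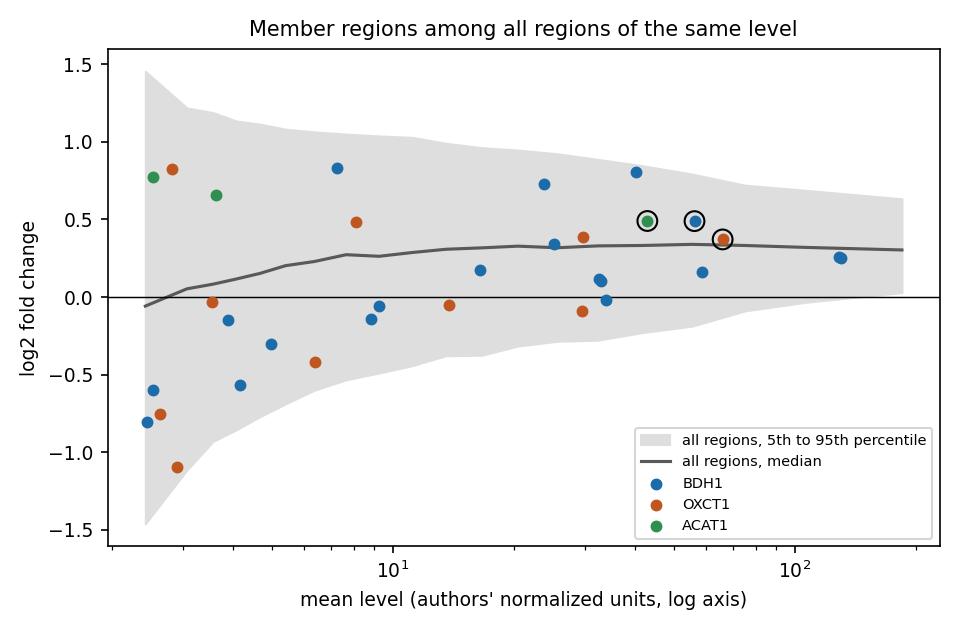
Log2 fold change (y axis) by mean level in the authors' normalized units (x axis, log scale) for the 32 regions of BDH1, OXCT1 and ACAT1, with the regions over the starts circled. The grey band and line give the 5th to 95th percentile and the median of all regions in 20 bins of level, and all 32 points lie between the percentiles of their own bin.

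Other genes of ketone body synthesis, use and transport, and cytosolic isozymes of enzymes of these pathways, were described in the same way. Of 9 such genes, 8 had regions in the deposited table, 54 in all, and OXCT2, the testis form of OXCT1, had no line in the table used here. Of the 54, 16 had an adjusted p-value. None of the 16 was called, beside 1.67% of all regions with an adjusted p-value. At an unadjusted p-value under 0.05 there were 3 positive and 2 negative regions, or 9.26% of the 54, near the 8.99% of all regions in the deposited table. Log2 fold changes of the 54 in the deposited table had a median of 0.23 (exact 95% interval 0.14 to 0.37), beside 0.28 for all regions.

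HMGCLL1, a lyase outside mitochondria, had 3 regions, none over its start and none with an adjusted p-value in the deposited table. BDH2, a cytosolic dehydrogenase of the same enzyme superfamily as BDH1, had a region 23 bases from its start with 0.21 ± 0.41 (SE) in the deposited table.

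Among the transporters, SLC16A6, a monocarboxylate carrier linked to ketone body export from liver, had the lowest adjusted p-value of the 54, 0.0789, with a log2 fold change of 0.81 ± 0.26 (SE) at its start in the deposited table. SLC16A1, the widely expressed carrier MCT1, had the highest start level of the list, 285 units with 30.7 per kb in the deposited table, and a log2 fold change of 0.37 ± 0.20 (SE). Another 2 regions of SLC16A1 had 0.52 ± 0.21 (SE) and 0.48 ± 0.23 (SE) in the deposited table, with unadjusted p-values of 0.0161 and 0.036. SLC16A7, the carrier MCT2, had 0.41 ± 0.27 (SE) at its start in the deposited table. Its 2 regions with a negative value at an unadjusted p-value under 0.05, -0.62 ± 0.30 (SE) and -1.93 ± 0.91 (SE) in the deposited table, lay 474 and 511 kb from the start. The one at 474 kb had a mean level of 39.1 and an adjusted p-value of 0.243. The one at 511 kb had a mean level of only 3.30 and no adjusted p-value.

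The cytosolic enzymes had start values close to each other. AACS, which activates acetoacetate for lipid synthesis, had a log2 fold change of 0.29 ± 0.28 (SE) at its start in the deposited table, HMGCS1, a synthase of the sterol pathway, 0.30 ± 0.26 (SE), and ACAT2, the cytosolic thiolase, 0.24 ± 0.26 (SE). The starts of BDH1, OXCT1 and ACAT1, at 0.37 to 0.49 in the deposited table, lay within the range of the 6 start regions of this list, 0.24 to 0.81. The upper end of that range was SLC16A6 alone. BDH1 and ACAT1, at 0.49, lay above the others, the next being SLC16A7 at 0.41, and this order was not tested.

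**Figure D5:**
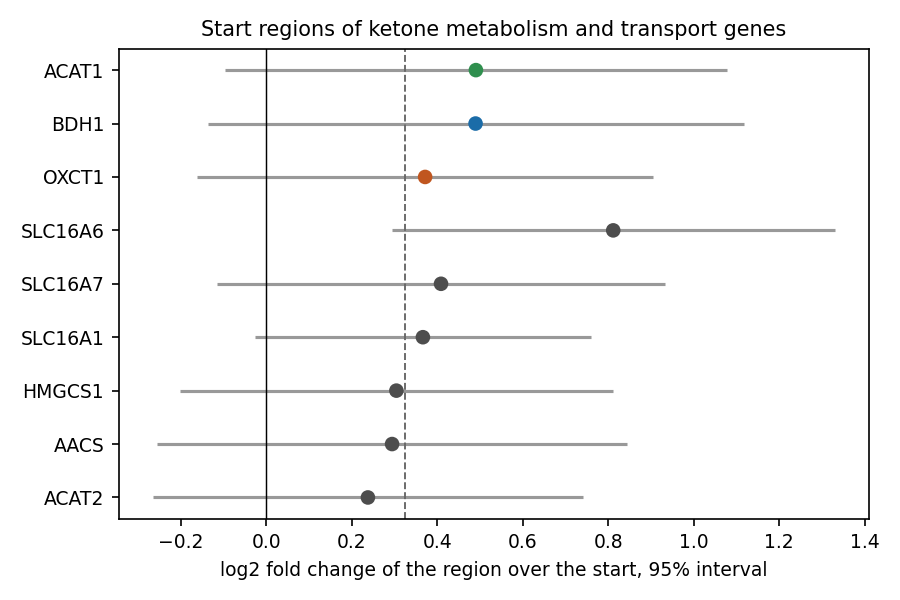
Log2 fold change in the deposited table of the region over the start (x axis, with a 95% interval from the SE) of BDH1, OXCT1 and ACAT1 and of the 6 other genes with such a region (y axis). The dashed line is the median of 0.32 of all regions with an adjusted p-value, which lies inside the interval of all 9 genes.

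The nearest region of another gene on each side of BDH1, OXCT1 and ACAT1 was also read, 6 in all. Their log2 fold changes ran from 0.09 to 0.75 in the deposited table. The highest were at weak regions of NPAT, 0.75 ± 1.03 (SE), and DLG1, 0.75 ± 0.77 (SE), with mean levels of 2.38 and 4.64. Only the regions of C5orf51 and CUL5 had an adjusted p-value, and neither was called, beside 1.67% of all such regions. The C5orf51 start region, 32.3 kb from the OXCT1 start region, had 0.09 ± 0.24 (SE) in the deposited table, and the region at the CUL5 start, 106 kb from the nearest ACAT1 region, had 0.37 ± 0.26 (SE). Among the 9996 start regions, the one most like that of BDH1 in level, width and fold change together lay at RRP1. The one most like that of OXCT1 lay at NICN1 and the one most like that of ACAT1 at LSAMP. Their distances were 0.0622, 0.0462 and 0.122, with each measure divided by its SD over these start regions.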

How the data were processed

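H3K27ac chromatin immunoprecipitation libraries, 2 per group by the treatment in the labels, were compared by the authors in 1 deposited table. The submitters' processing notes name build hg38 and, without role or order, Trim Galore, cutadapt, FastQC, Bowtie2, Picard, MACS2, featureCounts, DESeq2 and bedtools 2.29.1. The mean level is a signal that the authors normalized, per the file headers. The fold change and its SE are on the log2 scale, per the file headers. The score deposited as the statistic is the fold change over its SE. Deposited p-values were adjusted over the 36436 regions with a mean level of at least 18.4, since recomputing this gave the deposited values to within 1.58e-14. The deposited value 1 for other regions was read as not computed.

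The table holds no value per library, so edgeR was not run, and 0 columns of single libraries were left out. The authors' test was described instead, as planned. Repeated lines were merged into 91107 regions. Regions listed at distance 0 were taken to overlap a start; other distances placed the authors' start 20, 95 and 51 bases from the nearest RefSeq start of BDH1, OXCT1 and ACAT1. Intervals use a normal error, and intervals of medians are exact over regions. Centring subtracted the median of 0.32, after which p-values used the authors' SE. Motifs were searched in the 250 bases before each start. All regions of the 3 genes are described, and for the other genes of the pathway those over starts or with an unadjusted p-value under 0.05; the regions of HMGCLL1 and BDH2, outside this rule, were named after their values were seen. The nearest RefSeq, neighbour and likeness searches followed fixed rules, with the likeness over log2 level, log2 width and fold change, each divided by its SD. Some genes of the pathway list are not reported here. Procedures were tested on simulated data. The members, lists and rules were chosen with earlier results of these data known. Python 3.11.15, pandas 2.3.3, numpy 2.4.6 and scipy 1.17.1 were used.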

Additional observations from a re-analysis of the deposited data

How the results depend on the processing

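None of the 32 regions was called at an adjusted p-value under 0.01, or when a log2 fold change of 1 or more was also required. These settings are stricter than 0.05 alone, so their count of 0 was fixed by the main one. None was called under adjustment over all lines or all distinct regions, or after centring (subtraction of the median of 0.32). Beside these counts, 1.67% of all regions with an adjusted p-value were called at 0.05 and 0.124% after centring. Over all distinct regions it was 0.274%, and shares at the other settings were not computed. At an unadjusted p-value under 0.05, 2 of the 32 passed, where a looser threshold can only keep or raise a count. Centring lowers every fold change, and it changed some signs. The median of the 32 regions became -0.183, that of the regions elsewhere -0.219 and the share of positive regions 37.5%, while the median over starts became 0.166. Of the 32 single regions, 26 kept their direction after centring. The other 6, all assigned to BDH1, became -0.219, -0.0666, -0.205, -0.0728, -0.151 and -0.161. The share of positive regions was 81.3% for levels of 10 or more and 85.7% within the authors' adjustment. Without BDH1 the median of the regions elsewhere was -0.0348, and without ACAT1 it was -0.0219, so its sign rests on single genes; the cause was not tested. The other alternatives for the medians of all 32 regions and of the regions elsewhere stayed within the exact intervals over regions; for the 3 starts that interval is their whole range and shows no stability.

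No paired analysis was possible because the authors' file gives no values for single libraries. DESeq2 against edgeR, other size factors, filters on counts and leaving out each library were not run, as they need such values. Precision is limited by level: the SE had a median of 0.32 in the 14 regions within the adjustment and 0.82 in the other 18.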
